A study of Mus musculus with 8 samples.

Results

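The tumour suppressor p53 switches on genes linked to cell cycle arrest and to the survival of a stressed cell. Of its targets, 10 were examined here by name: *Cdkn1a*, *Btg2*, *Ccng1*, *Gtse1*, *Gadd45a*, *Plk2*, *Plk3*, *Sesn1*, *Sesn2* and *Phlda3*. They were chosen by what the genes are known to do, but with earlier results of these data known, out of 55401 genes in each library. All 10 were among the 17532 that had enough reads to be tested. RNA of mouse embryonic stem cells (ESCs) grown in serum with LIF and 2i (inhibitors that keep the cells naive) was sequenced in 2 Control, 3 Zzz3 auxin and 3 Yeats2 auxin libraries. ZZZ3 and YEATS2 are subunits of the ATAC coactivator complex, and in the auxin groups one of them carried a degron, a tag that sends the protein to degradation in the presence of the plant ubiquitin ligase subunit Tir1 and auxin, which was given for 24 h at 500 µM. The labels state neither the cell line nor the treatment of the controls, nor how many clones were used or whether replicates were separate cultures. The supplement of the study, which speaks of solvent and auxin in ZZZ3-AID and YEATS2-AID cells for its estimates of RNA metabolism, does not assign these 2 libraries to a line. The depletion, the exposure to auxin and a difference of line cannot be told apart, and P values measure the spread between these libraries only.

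In its best known form, p53 is kept low by the ubiquitin ligase MDM2 and accumulates after DNA damage or ribosomal and nutrient stress, upon which it binds pairs of a short palindromic element near its targets. *Cdkn1a* encodes p21, an inhibitor of cyclin-dependent kinases and the classical effector of p53-dependent arrest in G1. ESCs are known for high p53 levels, a short G1 phase and a weak p21 response, which is why *Cdkn1a* is set against the other targets here.

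All 8 ESC markers were detected, with a summed level of 4310 to 5095 CPM (the reads of a gene per 1e+06 assigned reads, scaled between libraries by TMM, the trimmed mean of M values) over the libraries, whereas 6 feeder fibroblast markers summed to 7.06 to 12.4 CPM. *Zzz3* mRNA lay at 182 and 186 CPM in the controls, at 77.5 to 112 with Zzz3 auxin and at 183 to 191 with Yeats2 auxin. Its log2 fold change was -0.95 in Zzz3 auxin (edgeR adjusted P 0.0187) and 0.03 in Yeats2 auxin (adjusted P 0.949). *Yeats2* mRNA lay at 90.9 and 95.8 CPM in the controls, at 119 to 133 with Zzz3 auxin and at 43.7 to 103 with Yeats2 auxin, where the groups overlapped. Its log2 fold change was 0.42 in Zzz3 auxin (edgeR adjusted P 0.386) and -0.32 in Yeats2 auxin (adjusted P 0.605). The degron acts on the protein, so the level of neither mRNA measures the depletion. Between 14315120 (Zzz3 auxin replicate 3) and 27884704 reads were assigned to genes. That library and Control replicate 1 stood apart in how expression followed base composition. The median log2 ratio of genes with more than 53.9% GC minus that of genes with less than 44.3% was 0.43 in Zzz3 auxin replicate 3 and -0.60 in Control replicate 1, and -0.08 to 0.16 elsewhere.

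The start regions of the genes on which the results turn are shown first, because the members share a regulator whose element can be looked for in them. RefSeq (GRCm38.p6) gave 13 windows for 10 of 10 members, each from 250 bases before to 50 bases after an annotated start. They were searched on both strands for the p53 decamer, the unit that occurs 2 times in a p53 response element. *Cdkn1a* has start sites 2790 bases apart, at chr17:29090729-29091028 (upstream window) and chr17:29093519-29093818 (downstream window), both on the plus strand. The other windows lie at chr13:110394794-110395093 (*Plk2*, plus strand), chr1:134079106-134079405 (*Btg2*, minus strand), chr1:135765835-135766134 (*Phlda3*, plus strand) and chr4:132510407-132510706 (*Sesn2*, minus strand). Each is written 5′ to 3′ along the gene, and capitals mark the decamers.
Cdkn1a, upstream window: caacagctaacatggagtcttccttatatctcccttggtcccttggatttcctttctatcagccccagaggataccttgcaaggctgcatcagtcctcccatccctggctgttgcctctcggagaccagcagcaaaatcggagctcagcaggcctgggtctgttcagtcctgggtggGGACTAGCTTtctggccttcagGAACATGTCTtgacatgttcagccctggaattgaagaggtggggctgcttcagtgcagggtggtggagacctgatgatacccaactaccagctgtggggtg
Cdkn1a, downstream window: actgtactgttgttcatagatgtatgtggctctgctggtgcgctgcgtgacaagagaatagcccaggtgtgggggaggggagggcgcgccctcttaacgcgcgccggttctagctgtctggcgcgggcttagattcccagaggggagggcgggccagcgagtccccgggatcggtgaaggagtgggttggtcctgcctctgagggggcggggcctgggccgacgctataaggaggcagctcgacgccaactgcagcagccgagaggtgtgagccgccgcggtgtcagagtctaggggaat
Plk2: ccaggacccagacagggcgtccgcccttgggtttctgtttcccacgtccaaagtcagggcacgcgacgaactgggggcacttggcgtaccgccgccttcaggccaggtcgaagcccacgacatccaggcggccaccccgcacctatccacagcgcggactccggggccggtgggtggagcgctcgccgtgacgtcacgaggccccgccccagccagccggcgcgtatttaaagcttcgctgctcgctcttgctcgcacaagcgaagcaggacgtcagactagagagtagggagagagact
Btg2: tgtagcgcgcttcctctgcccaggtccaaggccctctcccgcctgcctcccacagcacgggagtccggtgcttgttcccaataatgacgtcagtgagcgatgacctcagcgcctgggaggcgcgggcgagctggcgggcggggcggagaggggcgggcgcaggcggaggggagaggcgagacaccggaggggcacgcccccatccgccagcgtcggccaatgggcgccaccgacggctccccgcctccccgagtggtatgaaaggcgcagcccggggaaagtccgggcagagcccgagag
Phlda3: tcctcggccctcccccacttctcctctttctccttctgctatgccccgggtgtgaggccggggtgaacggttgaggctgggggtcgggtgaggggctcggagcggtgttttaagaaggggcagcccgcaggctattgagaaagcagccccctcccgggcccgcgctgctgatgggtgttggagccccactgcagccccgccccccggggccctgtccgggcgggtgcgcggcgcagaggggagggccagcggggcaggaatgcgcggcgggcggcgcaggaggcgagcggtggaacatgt
Sesn2: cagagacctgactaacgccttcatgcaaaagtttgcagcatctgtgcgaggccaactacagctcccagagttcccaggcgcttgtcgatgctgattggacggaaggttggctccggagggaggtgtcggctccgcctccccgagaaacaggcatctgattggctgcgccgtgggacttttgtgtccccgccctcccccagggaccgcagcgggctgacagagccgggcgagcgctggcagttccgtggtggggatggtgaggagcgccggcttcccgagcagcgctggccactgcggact

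*Cdkn1a* was the member with a pair of decamers close together, GGACTAGCTT and GAACATGTCT, which begin 73 and 51 bases before the upstream start with 12 bases between them. Such a pair, with at most 13 bases between its units, occurs in 24 of 32851 RefSeq windows of this kind (0.0731%). In *Cdkn1a* the letters directly after GAACATGTCT, tgacatgttc, miss the decamer at 1 base and were not marked. The marked pair is therefore not shown to be the element that p53 uses. A single decamer was found in *Ccng1* (GGGCAAGCCT, 185 bases before the start), *Gadd45a* (GGGCTAGCCC, 40 bases before), *Gtse1* (GGGCTTGCCT, beginning at position 9 after the more downstream of its starts) and *Sesn1* (AAGCTTGTTT, 173 bases before the more downstream of its starts). In all, 5 of the 13 member windows, each of another gene, held at least 1 decamer, while 8.36% of all windows do. *Plk2*, *Btg2*, *Phlda3*, *Sesn2* and *Plk3* had none, which says only that these letters are not in these windows. The 4 members that were called below are among these, and *Cdkn1a*, with the pair, was not called. No member window held the letters TATAAA, which occur in 13.6% of all windows on either strand. A match of letters is a description and not evidence of binding.

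The members covered a wide range of levels. Per kilobase of exon, *Ccng1* was the most abundant in the controls with 278 ± 18.6 CPM (mean ± SD, n = 2). It was followed by *Gtse1* with 60.4 ± 14.1, *Phlda3* with 40.2 ± 7.60, *Btg2* with 27.0 ± 0.16, *Sesn2* with 23.9 ± 4.75, *Plk2* with 18.7 ± 0.13, *Cdkn1a* with 18.5 ± 4.96 and *Sesn1* with 9.40 ± 0.19 CPM per kilobase. *Plk3* (4.50 ± 0.68) and *Gadd45a* (3.51 ± 0.42) were the lowest. In this order *Btg2* and *Sesn2*, and *Plk2* and *Cdkn1a*, differed from each other by less than 1 SD of the more variable gene. In Zzz3 auxin *Plk2* reached 45.4 ± 5.72 CPM per kilobase and in Yeats2 auxin 43.2 ± 2.81 (n = 3 each), whereas *Cdkn1a* had 18.3 ± 7.75 and 20.6 ± 0.48. The means of *Plk2* and *Cdkn1a*, alike per length in the controls, thus lay apart in the auxin groups. The test of their ratio, given below, did not pass. All further levels are CPM per gene, not per length.

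**Figure D1:**
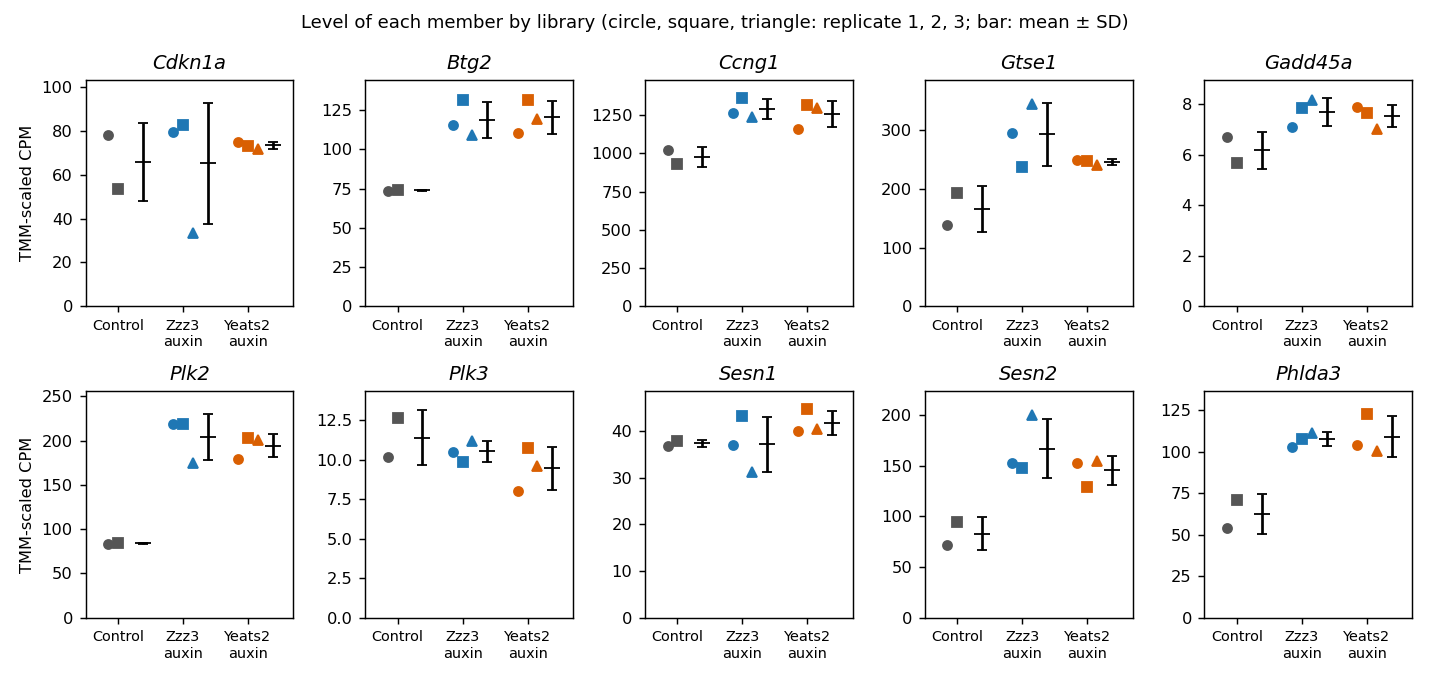
TMM-scaled CPM (vertical axes, linear, from 0) of the 10 p53 targets in each library, with circle, square and triangle for replicates 1, 2 and 3 and the bar beside them for mean ± SD. Plk2 lay at 83.7 and 84.5 CPM in the controls and at 174 to 219 in the auxin libraries, and Cdkn1a was lowest, at 33.3 CPM, in Zzz3 auxin replicate 3.

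Several of the 10 targets were higher after auxin and none was called lower. With Zzz3 auxin, 4 of 10 (*Plk2*, *Sesn2*, *Phlda3* and *Btg2*) rose at an adjusted P under 0.05, where 0.496% of all tested genes were called higher (0.753% in either direction). With Yeats2 auxin, 3 of 10 (*Plk2*, *Phlda3* and *Btg2*) rose, where 0.331% of all genes were called higher (0.445% in either direction). The median log2 fold change (FC) of the 10 was 0.54 and 0.47, against 0.01 and -0.01 over all genes. The libraries of both groups did not overlap and were higher after auxin for 7 members in Zzz3 auxin (16.8% of all genes) and for 8 members in Yeats2 auxin (19.3% of all genes), and lower for 0 members (18.9% and 21% of all genes). At an unadjusted P under 0.05, 6 members were higher in each comparison (11.6% and 7.65% of all genes). A fit without either control library leaves a lone control, so it cannot show whether the calls of the members hold. Both comparisons use the same 2 controls, so that their values are given side by side and not as separate evidence. The 10 were chosen with earlier results of these data known, so the shares of all genes describe them and test no excess.

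**Figure D2:**
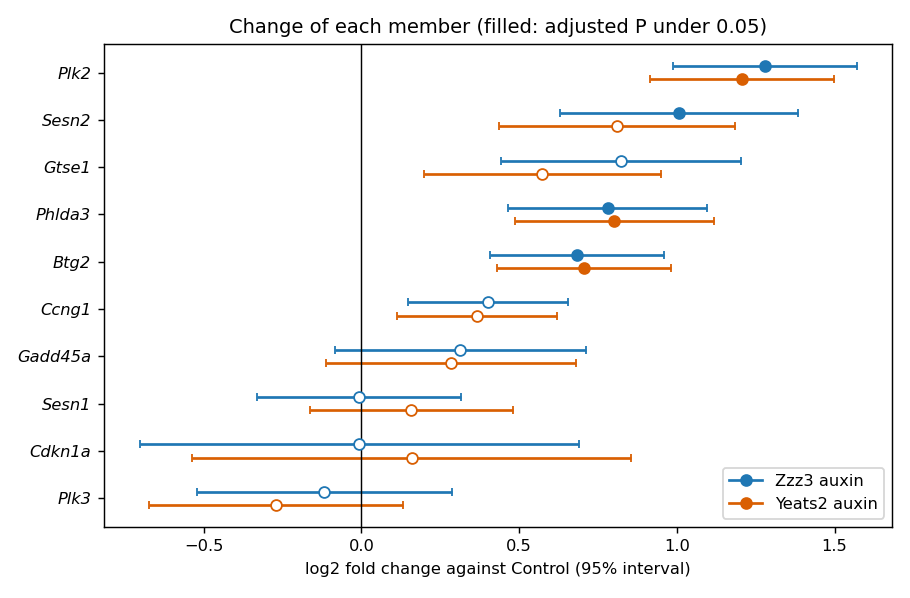
Log2 FC against Control (horizontal axis) of each p53 target with its 95% interval, for Zzz3 auxin (blue) and Yeats2 auxin (orange), where a filled point has an edgeR adjusted P under 0.05. Plk2 changed by 1.28 and 1.21, while the intervals of Cdkn1a run from -0.70 to 0.69 and from -0.54 to 0.86.

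Of the 5 members grouped here under the cell cycle (*Cdkn1a*, *Btg2*, *Ccng1*, *Gtse1* and *Gadd45a*), 1 was called in each comparison (0.753% and 0.445% of all genes). *Btg2* (GRCm38 chromosome 1, 134075170 to 134079120, minus strand) encodes an antiproliferative partner of the CCR4-NOT deadenylase. It had 73.6 and 74.3 CPM in the controls, 115, 132 and 109 with Zzz3 auxin and 110, 131 and 120 with Yeats2 auxin, so that every auxin library was above both controls. Its log2 FC was 0.68 (SE 0.13, adjusted P 0.0402) in Zzz3 auxin and 0.70 (SE 0.13, adjusted P 0.0419) in Yeats2 auxin. The log2 FC of *Btg2* moved little when a library was left out (0.61 to 0.75 and 0.64 to 0.77). The call was lost in both comparisons without each Yeats2 auxin library, and in Zzz3 auxin also without Zzz3 auxin replicate 1 (adjusted P 0.0645 to 0.182). A fit without either control leaves a lone control and is not read as a lost call.

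*Cdkn1a* (ENSMUSG00000023067, chromosome 17, 29090976 to 29100727, plus strand) was not called in either comparison. Its level was 78.2 and 53.3 CPM in the controls, 79.2, 82.7 and 33.3 with Zzz3 auxin, and 75.1, 73.2 and 71.7 with Yeats2 auxin. The 3 Yeats2 auxin libraries lay between the controls, Zzz3 auxin replicates 1 and 2 lay just above the higher control, and Zzz3 auxin replicate 3 was lower than all others. The log2 FC was -0.01 (SE 0.31, 95% interval -0.70 to 0.69, adjusted P 0.993) in Zzz3 auxin and 0.16 (SE 0.31, interval -0.54 to 0.86, adjusted P 0.846) in Yeats2 auxin. As a fold, the intervals allow 0.614 to 1.61 and 0.688 to 1.81, so that these data show neither a change nor its absence. At least 498 reads were counted for *Cdkn1a* in every library. Its exons share 273 bases with AC167363.2 on the opposite strand, which had at most 0.0767 CPM. Without Zzz3 auxin replicate 3 the log2 FC in Zzz3 auxin was 0.32 (adjusted P 0.272), and without Control replicate 2, the lower control, it was -0.26 in Zzz3 auxin and -0.09 in Yeats2 auxin. *Cdkn1a* was called under none of the 16 alternative settings in either comparison.

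*Gtse1*, which encodes a microtubule-binding protein of S and G2 phase that restrains p53 and stabilises p21, had 138 and 193 CPM in the controls, 295, 238 and 346 with Zzz3 auxin and 250, 248 and 241 with Yeats2 auxin. All auxin libraries were above the controls, but the log2 FCs of 0.82 (SE 0.17, adjusted P 0.0545) and 0.57 (SE 0.17, adjusted P 0.168) did not pass. In Zzz3 auxin *Gtse1* passed under 5 of 16 alternatives, with DESeq2 (0.83, adjusted P 0.00129), without a filter on low counts (0.83, adjusted P 4.19e-06), with the GC and length correction (0.66, adjusted P 0.0359), and without Zzz3 auxin replicate 2 (0.96, adjusted P 0.0254) or replicate 3 (0.70, adjusted P 0.0458). In Yeats2 auxin it passed under 3 of 16, without a filter (0.60, adjusted P 0.00512), with only the compared groups (0.59, adjusted P 0.0457) and with limma-voom (0.59, adjusted P 0.0429). *Ccng1*, which encodes cyclin G1, a partner of protein phosphatase 2A, had 1022 and 929 CPM in the controls, 1262, 1361 and 1240 with Zzz3 auxin and 1159, 1317 and 1297 with Yeats2 auxin. Again no libraries overlapped, with log2 FCs of 0.40 (SE 0.12, adjusted P 0.0970) and 0.37 (SE 0.12, adjusted P 0.184). *Ccng1* has the lowest GC content of the 10 transcripts (40.8%), and after correction of each library for GC content and length its log2 FC was 0.64 (adjusted P 0.0154) and 0.55 (adjusted P 0.0262).

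*Gadd45a*, a stress sensor that binds PCNA and p21, was close to the lower end of expression with 6.71 and 5.67 CPM in the controls, 7.10 to 8.17 with Zzz3 auxin and 7.04 to 7.89 with Yeats2 auxin. Its log2 FC was 0.31 (SE 0.18, adjusted P 0.343) and 0.28 (SE 0.18, adjusted P 0.493), although no library of the groups overlapped. Its exons share 337 bases with *E230016M11Rik* on the opposite strand, which had 0.905 to 1.41 CPM, and the strand setting of the counting is not given in the sources used here.

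The polo-like kinases *Plk2* and *Plk3* are both known as p53 targets in the response to damage, and 1 of them was called in each comparison (0.753% and 0.445% of all genes). *Plk2* (ENSMUSG00000021701, chromosome 13, 110395046 to 110400844, plus strand) had 83.7 and 84.5 CPM in the controls, 219, 218 and 174 with Zzz3 auxin and 180, 203 and 200 with Yeats2 auxin. The lowest auxin library was therefore more than 2 times the higher control. Its log2 FC was 1.28 (SE 0.13, adjusted P 0.00465) in Zzz3 auxin and 1.21 (SE 0.13, adjusted P 0.00799) in Yeats2 auxin, or 2.42-fold and 2.31-fold. This was the change with the largest estimate among the 10, and it was called under 13 of 16 alternatives in each comparison, over which it ranged from 1.23 to 1.39 and from 1.17 to 1.26. The fits without either control, which count among the 16, leave a lone control and are not read as lost calls. Beyond those, *Plk2* was not called in Yeats2 auxin without Yeats2 auxin replicate 3 (1.18, adjusted P 0.0756), nor in Zzz3 auxin with only the 2 compared groups in the fit (1.29, adjusted P 0.0676).

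*Plk3* had 10.2 and 12.6 CPM in the controls, 10.5, 9.86 and 11.2 with Zzz3 auxin and 8.01, 10.7 and 9.58 with Yeats2 auxin, and the groups overlapped. Its log2 FC was -0.12 (SE 0.18, 95% interval -0.52 to 0.29, adjusted P 0.751) and -0.27 (SE 0.18, interval -0.67 to 0.13, adjusted P 0.520). A rise as large as that of *Plk2* lies outside both intervals. *Plk3* shares 84 exon bases with *Tctex1d4* on the opposite strand, which was at 0 to 0.468 CPM.

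The 3 members of stress survival dampen growth signals. *Phlda3* (chromosome 1, 135766119 to 135769136, plus strand) encodes a small protein with a pleckstrin homology domain that competes with AKT for membrane lipids. It had 54.2 and 71.0 CPM in the controls, 103, 108 and 112 with Zzz3 auxin and 104, 123 and 101 with Yeats2 auxin, without overlap, and a log2 FC of 0.78 (SE 0.14, adjusted P 0.0402) and 0.80 (SE 0.14, adjusted P 0.0419). *Phlda3* has the highest GC content of the 10 transcripts (62.6%). After correction for GC content and length its log2 FC was 0.34 (adjusted P 0.297) and 0.54 (adjusted P 0.151), so that its call was lost in both comparisons. It was also lost without Zzz3 auxin replicate 1 or any 1 Yeats2 auxin library in Zzz3 auxin (0.78 to 0.83), and without Zzz3 auxin replicate 2 or any 1 Yeats2 auxin library in Yeats2 auxin (0.71 to 0.86). Fits with a lone control gave 0.60 and 0.62 without Control replicate 1, and 0.99 and 1.01 without Control replicate 2.

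*Sesn1* and *Sesn2* encode sestrins, which sense leucine and restrain mTORC1. *Sesn2* (chromosome 4, 132492032 to 132510501, minus strand) had 71.3 and 94.6 CPM in the controls, 153, 148 and 200 with Zzz3 auxin and 153, 129 and 155 with Yeats2 auxin, and every auxin library was above both controls. Its log2 FC was 1.01 (SE 0.17, adjusted P 0.0359) in Zzz3 auxin and 0.81 (SE 0.17, adjusted P 0.0728) in Yeats2 auxin, and with DESeq2 it passed in both (adjusted P 2.65e-05 and 0.00181), as it did by edgeR in Yeats2 auxin without Zzz3 auxin replicate 3 (0.82, adjusted P 0.0152). After correction for GC content and length *Sesn2*, whose transcript holds 58.7% GC, showed log2 FCs of 0.64 (adjusted P 0.0379) and 0.59 (adjusted P 0.0509). In Zzz3 auxin the call was lost without Zzz3 auxin replicate 1 (1.08, adjusted P 0.0522) or any 1 Yeats2 auxin library (1.01). Fits with a lone control gave 0.81 without Control replicate 1 and 1.23 without Control replicate 2. *Sesn1* had 36.9 and 37.96 CPM in the controls, 37.0, 43.2 and 31.3 with Zzz3 auxin and 40.1, 44.8 and 40.5 with Yeats2 auxin. Its log2 FC was -0.01 (SE 0.15, 95% interval -0.33 to 0.32, adjusted P 0.986) and 0.16 (SE 0.15, interval -0.16 to 0.48, adjusted P 0.654), so that both intervals end below the estimate of *Sesn2*.

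**Figure D3:**
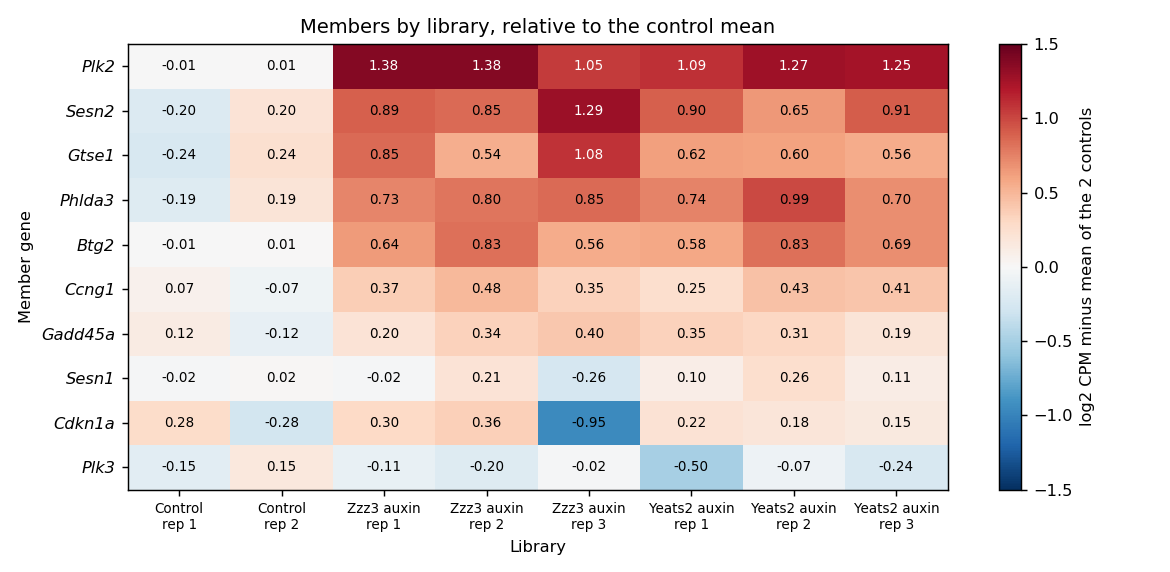
Log2 CPM of each p53 target (rows) in each library (columns) minus the mean of the 2 controls, with the value in each field and a colour scale from blue (lower) to red (higher). Plk2 was between 1.05 and 1.38 in the auxin libraries, and Cdkn1a was -0.95 in Zzz3 auxin replicate 3 and 0.15 to 0.36 in the other auxin libraries.

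Whether *Cdkn1a* differed from the other targets was tested on the ratio of each gene to *Cdkn1a* within a library, a quantity that no scaling of a library can change. The ratio of *Plk2* to *Cdkn1a* was 1.07 and 1.59 in the controls, 2.77, 2.64 and 5.23 with Zzz3 auxin and 2.39, 2.77 and 2.79 with Yeats2 auxin, all auxin libraries being above the controls. The log2 ratio was higher by 1.37 (95% interval 0.46 to 2.27) and 1.02 (interval 0.11 to 1.93), but did not pass after correction for the number of genes (limma adjusted P 0.930 and 1.00). For these intervals and P values limma drew the spread from all genes together. The ratios of all genes carry the error of *Cdkn1a* in the same libraries, so the intervals are likely too narrow and the unadjusted P values too small. With limma, 0 of 9 other members passed in Zzz3 auxin and 0 of 9 in Yeats2 auxin, against 0.0057% and 0% of all genes. At an unadjusted P under 0.05, 3 members had a higher ratio in Zzz3 auxin (*Plk2*, *Sesn2* with 1.11 and *Gtse1* with 0.93; 2.85% of all genes in either direction) and 1 in Yeats2 auxin (*Plk2*; 1.2% of all genes). Ratios without overlap between groups, all higher, were those of *Plk2*, *Btg2* and *Sesn2* in Zzz3 auxin (4.06% of all genes) and of *Plk2*, *Btg2* and *Phlda3* in Yeats2 auxin (4.57%). In an exact permutation test over 2 against 3 libraries, with 10 relabelings, the two-sided P, taken as 2 times the smaller one-sided P, cannot fall below 0.2, which all of these reached.

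Calls of this contrast changed with 1 library, and its estimates with several. Without Zzz3 auxin replicate 3 the ratio of *Plk2* to *Cdkn1a* was called in both comparisons, at a log2 change of 1.05 (adjusted P 0.00165) in Zzz3 auxin and 1.02 (adjusted P 0.00142) in Yeats2 auxin, and no other member passed. The share of all genes called in that fit is not given here, so the call is not read as particular to *Plk2*. In Zzz3 auxin the estimates for the other 8 members fell without it, for example from 0.78 to 0.41 for *Btg2*, from 0.93 to 0.37 for *Gtse1* and from 1.11 to 0.54 for *Sesn2*. Leaving out a control moved the estimates as much. Without Control replicate 1 and without Control replicate 2, in turn, the log2 ratio of *Plk2* changed by 1.08 and 1.65 in Zzz3 auxin and by 0.74 and 1.30 in Yeats2 auxin. In the same order, that of *Sesn2* changed by 0.63 and 1.59 and by 0.16 and 1.12, that of *Gtse1* by 0.41 and 1.44 and by -0.11 and 0.93, and that of *Phlda3* by 0.42 and 1.36 and by 0.15 and 1.09. These fits have a lone control, so only their estimates are read. In Zzz3 auxin replicate 3 *Cdkn1a* was at its lowest and *Sesn2* (200 CPM) and *Gtse1* (346 CPM) at their highest. It was also the library with the fewest reads and the strongest positive GC trend, whose part in the result was not tested beyond the correction for GC content and length, under which the log2 ratio of *Plk2* changed by 1.58 and 1.18 without passing (adjusted P 0.948 and 1.00). All of these ratios share the error of *Cdkn1a* itself and are not independent of each other.

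**Figure D4:**
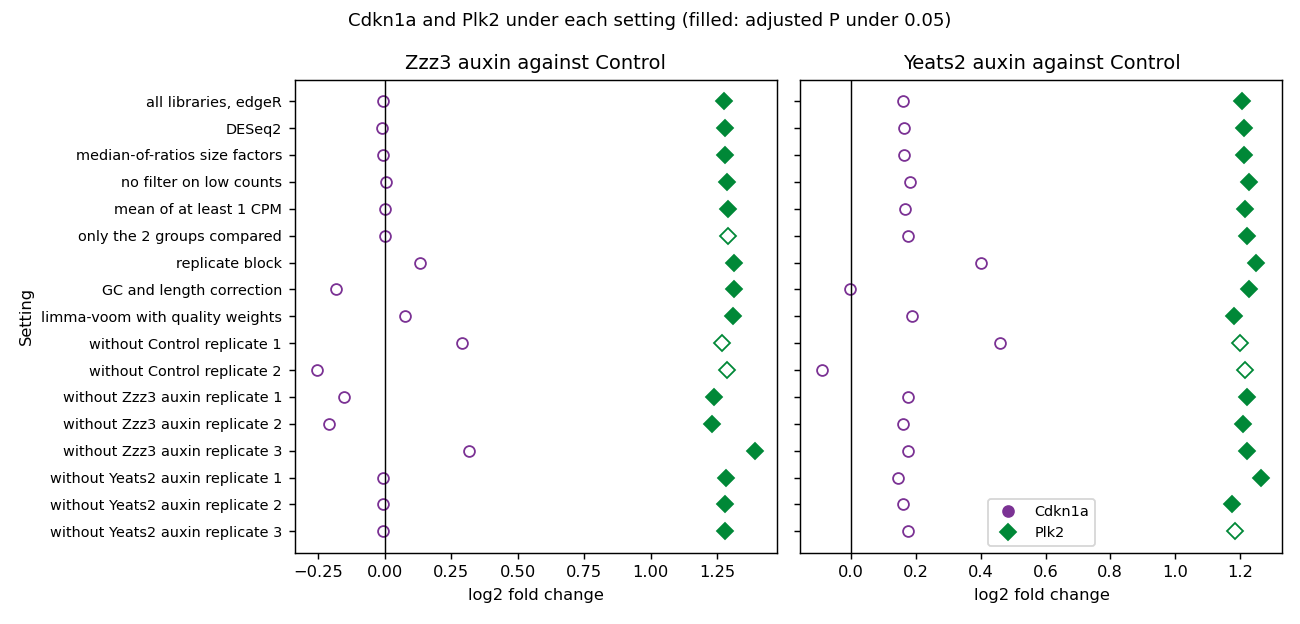
Log2 FC against Control (horizontal axes) of Cdkn1a (circles) and Plk2 (diamonds) under each way of processing the counts (rows), filled where the adjusted P was under 0.05. Cdkn1a ranged from -0.26 to 0.32 in Zzz3 auxin and from -0.09 to 0.46 in Yeats2 auxin and was never called, whereas Plk2 stayed between 1.23 and 1.39 and between 1.17 and 1.26.

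The depletions were also compared directly. None of the 10 members was called between Yeats2 auxin and Zzz3 auxin by edgeR (0% of all genes) or by DESeq2. At an unadjusted P under 0.05, 0 were higher (2.44% of all genes) and 0 were lower, a direction for which the share of all genes was not computed. All groups overlapped (5.25% and 5.82% of all genes did not, in the higher and lower direction). With Zzz3 auxin as the reference, the log2 FC in Yeats2 auxin was -0.07 (95% interval -0.32 to 0.18) for *Plk2*, 0.02 (-0.22 to 0.26) for *Btg2* and 0.02 (-0.25 to 0.30) for *Phlda3*. It was -0.20 (-0.52 to 0.13) for *Sesn2* and -0.25 (-0.58 to 0.08) for *Gtse1*. *Sesn2* was thus called in only one of the comparisons with control, but the depletions were not shown to differ in it. For *Cdkn1a* the difference was 0.17 (-0.45 to 0.79). By limma, 0 of 9 ratios to *Cdkn1a* passed (0% of all genes) and 0 of 9 had an unadjusted P under 0.05 (1.46% of all genes), and 0.633% of all genes had ratios that were higher in Yeats2 auxin without overlap.

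Across the 8 libraries, and as a description only, since these fall into control and auxin libraries, the log2 CPM of *Plk2* went together with that of *Btg2* (Pearson r 0.976), *Ccng1* (0.947), *Phlda3* (0.917) and *Sesn2* (0.837), and less with that of *Sesn1* (0.299), *Cdkn1a* (0.178) and *Plk3* (-0.420). *Cdkn1a* was closest to *Sesn1* (r 0.759), both having their lowest level in Zzz3 auxin replicate 3. Among 8657 protein-coding genes that averaged 10 CPM or more, *Plk2* was most like *Mlana* (r 0.986), *Galnt6* (0.983) and *Dglucy* (0.983), and *Btg2* ranked 9th. *Cdkn1a* was most like *Hdlbp* (r 0.992), *Srbd1* (0.990) and *Phtf2* (0.988). *Hdlbp* had 601 and 503 CPM in the controls, 634, 638 and 369 with Zzz3 auxin and 611, 614 and 615 with Yeats2 auxin, so that its profile, too, was set by low values in Control replicate 2 and Zzz3 auxin replicate 3.

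The members were set beside other genes of the pathway. *Trp53* mRNA, which encodes p53 itself, was at 171 and 159 CPM in the controls, 129, 146 and 116 with Zzz3 auxin and 182, 96.3 and 157 with Yeats2 auxin, with log2 FCs of -0.34 (adjusted P 0.377) and -0.19 (adjusted P 0.722). Of 8 genes of the p53 family and its regulators, 7 were tested (medians -0.19 and 0.07). Over all genes 0.496% and 0.331% were called higher, and of these 7 genes 2 rose in each comparison. They were *Mdm2*, the ligase that degrades p53 and is itself its target (0.71, adjusted P 0.0375, and 0.69, adjusted P 0.0428), and the paralog *Trp73* (1.20, adjusted P 0.0187, and 1.28, adjusted P 0.0204). Of 12 p53 targets of cell death (medians 0.54 and 0.57), 1 rose in each comparison (0.496% and 0.331% of all genes). It was *Pidd1* of the PIDDosome (0.81, adjusted P 0.0368, and 0.78, adjusted P 0.0419). At an unadjusted P under 0.05, 9 and 10 of the 12 cell death targets were higher (11.6% and 7.65% of all genes), against 6 and 6 of the 10 targets described here. For 9 and 10 the libraries did not overlap and were higher (16.8% and 19.3% of all genes), against 7 and 8 of the 10. *Bbc3*, which encodes the BH3-only protein PUMA, had 1.35 (adjusted P 0.0505) and 0.97 (adjusted P 0.155), and *Pmaip1* (NOXA) had 0.90 (adjusted P 0.316) in Yeats2 auxin. Of 12 p53 targets of repair and metabolism (medians 0.18 and 0.28), 1 rose in Zzz3 auxin (0.496% of all genes), the epoxide hydrolase *Ephx1* (0.85, adjusted P 0.0402). In Yeats2 auxin 0 of 12 were called by edgeR, near the share of all genes (0.445%), and *Ephx1* had 0.78 (adjusted P 0.0656). At an unadjusted P under 0.05, 3 and 4 of the 12 were higher (11.6% and 7.65% of all genes). The second named gene of that list was *Fdxr* in Zzz3 auxin (0.73, adjusted P 0.171) and *Ddit4* in Yeats2 auxin (0.79, adjusted P 0.230).

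**Figure D5:**
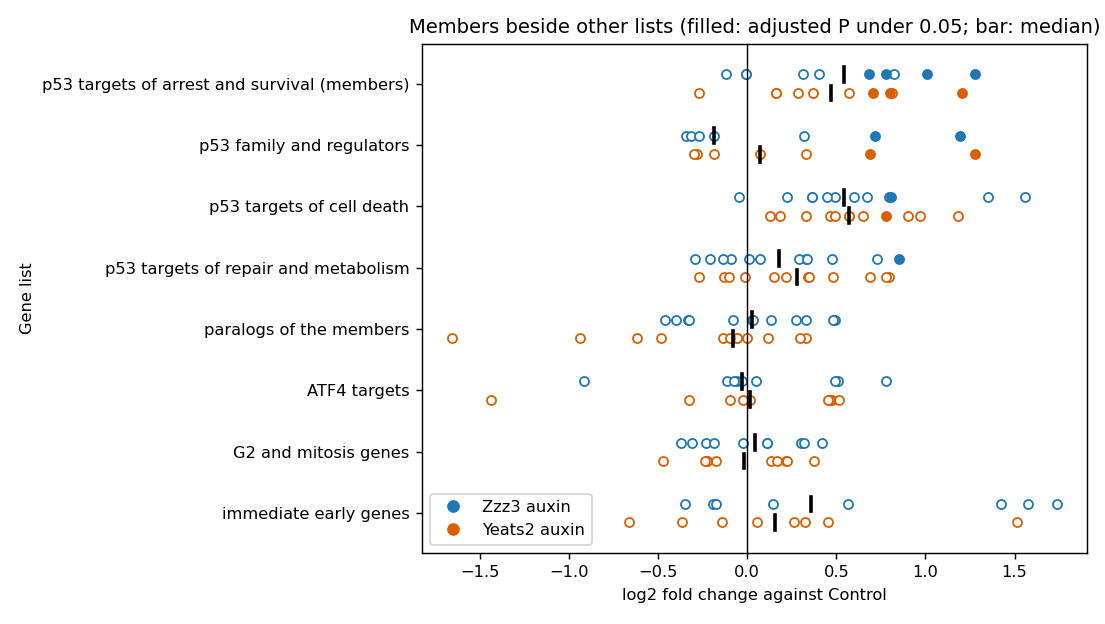
Log2 FC against Control (horizontal axis) of every tested gene of the 10 p53 targets and of 7 other lists, for Zzz3 auxin (blue) and Yeats2 auxin (orange), filled where the edgeR adjusted P was under 0.05, with a bar at each median. The medians of the 10 targets (0.54 and 0.47) and of the cell death targets (0.54 and 0.57) lay to the right of 0, and those of the paralogs at 0.03 and -0.08.

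Close relatives of the members were listed as well. Of 12 paralogs (medians 0.03 and -0.08), 0 were called by edgeR in either comparison, which is near the share of all genes (0.753% and 0.445%) and shows no contrast with the members. At an unadjusted P under 0.05, 1 and 1 were higher (11.6% and 7.65% of all genes) and 1 and 4 lower. *Plk1*, the mitotic polo-like kinase, had 0.48 (adjusted P 0.113) in Zzz3 auxin and *Gadd45b* 0.49 (adjusted P 0.268). In Yeats2 auxin the p21 paralog *Cdkn1b* had -0.48 (adjusted P 0.192) and *Ccng2* -0.62 (adjusted P 0.138). *Sesn2* is also a target of the stress factor ATF4. Of 9 tested ATF4 targets (medians -0.03 and 0.01), 0 were called by edgeR in either comparison, near the share of all genes (0.753% and 0.445%). At an unadjusted P under 0.05, 2 and 1 were higher (11.6% and 7.65% of all genes) and 0 and 1 lower. In Zzz3 auxin *Phgdh* had 0.78 (adjusted P 0.110) and *Ddit3* 0.51 (adjusted P 0.280). In Yeats2 auxin *Trib3* had 0.52 (adjusted P 0.228) and *Ddit3* 0.47 (adjusted P 0.417). *Btg2* and *Plk2* respond to growth factors as well. Of 8 tested immediate early genes (medians 0.35 and 0.16), 0 were called by edgeR, again near the share of all genes. At an unadjusted P under 0.05, 3 and 1 were higher (11.6% and 7.65% of all genes) and 1 and 2 lower. *Junb* had 1.58 (adjusted P 0.148) in Zzz3 auxin and 0.45 (adjusted P 0.743) in Yeats2 auxin, *Klf6* had -0.35 (adjusted P 0.127) in Zzz3 auxin and *Ier3* -0.66 (adjusted P 0.252) in Yeats2 auxin.

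*Gtse1* and *Plk1* vary with the cell cycle, and these are bulk samples, in which fewer cells of a kind and less RNA per cell cannot be told apart. Of 10 G2 and mitosis genes (medians 0.04 and -0.02), 0 were called by edgeR in either comparison, near the share of all genes (0.753% and 0.445%). At an unadjusted P under 0.05, 3 and 1 were higher (11.6% and 7.65% of all genes) and 2 and 1 lower. *Bub1*, of the spindle checkpoint, had -0.37 (adjusted P 0.126) and -0.47 (adjusted P 0.135), while *Cdc20*, the activator of the anaphase-promoting complex, had 0.42 (adjusted P 0.123) and 0.38 (adjusted P 0.239).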

How the data were processed

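The authors trimmed reads of ribodepleted total RNA, aligned them to mm10 with STAR 2.5.3a and assigned those that aligned uniquely to genes with HTSeq 0.6.1p1 in union mode, per the labels and the methods of the study, and deposited the raw counts in 1 file for each library. The labels name poly(A) RNA, while the protocol describes depletion of ribosomal RNA. GENCODE annotation of GRCm38 matched 55141 of 55401 gene identifiers, and the tallies of unassigned reads were left out (reads in no gene were 29.6% to 37.1% of uniquely aligned reads). The 10 members and all gene lists were chosen with earlier results of these data known.

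Counts were fitted in R 4.3.3 with edgeR 4.0.16 (filterByExpr, TMM, robust quasi-likelihood test, all 8 libraries, a mean per group), and two-sided P values were adjusted after Benjamini and Hochberg over 17532 genes. Genes with an adjusted P under 0.05 are referred to as called. SE is the log2 FC divided by the square root of F. Ratios to *Cdkn1a* were tested with limma 3.58.1 on log2 CPM (prior count 2), over 17531 genes. DESeq2 1.42.0, other scalings and filters, only the compared groups, the replicate block, a correction for GC content and length, limma-voom and leaving out each library were alternatives. Beside the 10 members, *Trp53* and the degron targets, genes were named if called or among the 2 of a list with the largest log2 FC at a mean of at least 2 CPM, and those most like *Cdkn1a* and *Plk2* by Pearson r over 8 libraries. Depth was 14315120 to 27884704 assigned reads, and the 2 controls limit the precision.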

Additional observations from a re-analysis of the deposited data

How the results depend on the processing

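The number of the 10 targets called in Zzz3 auxin was 4 by edgeR with all libraries (0.753% of all genes) and 6 with DESeq2 (6.35%). It was 0 with only the 2 compared groups in the fit (0%) and 1 (*Plk2*) with the replicate block (0.24%). With 1 auxin library left out it was 1 to 5 (0.0173% to 4.84%). In Yeats2 auxin the number called was 3 by edgeR with all libraries (0.445% of all genes). It was 4 with DESeq2, 5 without a filter, 5 with only the compared groups and 5 with limma-voom. With the replicate block it was 1 (*Plk2*), and with 1 auxin library left out 0 to 4. The share of all genes called changes with the setting, so these counts alone are not a result about the members. For the alternatives in Yeats2 auxin that share is not given here, so a higher count there is not a stronger result. A fit without either control assumes that the lone control varies like the other groups, and no count of members is read from it. With the GC and length correction 5 (1.01% of all genes in Zzz3 auxin) and 3 were called, *Ccng1* among them and *Phlda3* not. Between the depletions the count was 0 under every alternative run. The number of ratios to *Cdkn1a* called was 0 to 1 when 1 library was left out in both comparisons, and 1 in Yeats2 auxin with only the compared groups. These numbers, too, stand without the share of all genes and are not a result about the members.

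Estimates near 0 changed sign. For *Cdkn1a* in Zzz3 auxin (-0.01) the log2 FC was 0.0058 without a filter, 0.0026 with a mean of at least 1 CPM, 0.00062 with only the compared groups, 0.13 with the replicate block, 0.077 with limma-voom and -0.26 to 0.32 with 1 library left out. For *Sesn1* it was 0.0035, 0.0044, 0.0039, 0.049, 0.039 and -0.12 to 0.11 in the same order, and for *Plk3* -0.27 to 0.051 with 1 library left out. *Cdkn1a* in Yeats2 auxin was -0.0038 with the GC correction and -0.089 to 0.46 with 1 library left out. Between the depletions, limma-voom gave *Btg2* -0.051 and *Phlda3* -0.032, and the ranges with 1 library left out were -0.14 to 0.37 for *Cdkn1a*, -0.047 to 0.098 for *Btg2*, -0.069 to 0.020 for *Ccng1*, -0.087 to 0.016 for *Gadd45a* and -0.074 to 0.077 for *Phlda3*. Log2 ratios to *Cdkn1a* in Zzz3 auxin were -0.075 for *Sesn1* with the replicate block, and with 1 library left out -0.056 to 0.67 for *Gadd45a*, -0.48 to 0.42 for *Plk3* and -0.23 to 0.37 for *Sesn1*. In Yeats2 auxin they were -0.038 for *Ccng1* and -0.12 for *Gadd45a* with the block and 0.092 for *Sesn1* with the GC correction, and with 1 library left out -0.026 to 0.39 for *Ccng1*, -0.11 to 0.93 for *Gtse1*, -0.057 to 0.26 for *Gadd45a* and -0.32 to 0.27 for *Sesn1*. The cause was not tested.

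Whether the replicate numbers pair the libraries was not settled. Deviations of same-numbered libraries from their group means correlated by -0.33 to 0.30. With 2 controls the deviations of the controls mirror each other, so these values cannot exclude a pairing. With 2 controls, it cannot be judged whether the calls of members hold without either one, since the fit then has a lone control. The 95% intervals of *Cdkn1a* allow rises of up to 1.61-fold and 1.81-fold.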
